A study of Mus musculus with 6 samples.

Results

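The NF-kB family and its feedback inhibitors were followed here through 10 genes chosen by symbol: the subunit genes Rela, Rel, Relb, Nfkb1 and Nfkb2, the inhibitor genes Nfkbia, Nfkbib, Nfkbie and Tnfaip3, and the kinase gene Ikbkb. Of these 10, 9 had a probe set of their own symbol, 1 each, among 19937 genes measured; Nfkb1 is not analysed here. All samples were cultured cells of 1 clone, #483, a T-ALL (T-cell acute lymphoblastic leukaemia) from C57BL6 mice. Of 6 samples, 3 received 100 µM 4EGI-1 for 2 h and 3 were controls; 4EGI-1 inhibits the start of cap-dependent translation by keeping eIF4E from joining eIF4G. The controls are titled untreated while the protocol names DMSO, so whether they received solvent is not settled. RNA of the pooled polysome fractions, that is mRNA loaded with several ribosomes, was hybridised to 1 array per sample, and the values are log2 signals. The comparison asks whether mRNAs of the NF-kB system differed in their polysomal abundance between treated and control cells. Arrays were normalized to each other, so a rise or fall is relative to the other mRNAs measured.

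In resting cells, NF-kB dimers of the Rel family are held in the cytoplasm by IkB proteins. Signals from TNF-family, Toll-like and antigen receptors activate the IkB kinase complex, which marks IkB proteins for degradation, and the freed dimers enter the nucleus. Among the genes they switch on are those of their own inhibitors and of some subunits, which closes a feedback loop, and NF-kB activity has been described downstream of Notch in T-cell leukaemia.

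Median signals of the arrays lay between 6.38 and 6.43 over 34760 probe sets, and precision is limited by there being 3 arrays a group. Across genes, Pearson's r was 0.9963 to 0.9972 within a group and 0.988 to 0.9904 between groups. All 9 measured T-cell markers of 10 listed lay above the table's median signal of 6.404, with Thy1 the highest at 12.37. Of the 7 measured B-cell and 10 myeloid markers, 1 each did so, Pax5 at 6.70 and Itgam at 6.80. Of 4 measured erythroid markers, 3 lay above the median, with Epor the highest at 7.03. So did 5 of 8 stromal and endothelial markers, with Pecam1 at 8.93. Lying above the median thus does not by itself set the T-cell markers apart. The mean of the T-cell markers was 9.90 to 9.99 on the 4EGI-1 arrays, against 10.31 to 10.34 on the control arrays. Of the 9, 6 fell at a limma adjusted p under 0.05, against 11.5% of all genes. The only marker of another cell type past the test was the myeloid gene Adgre1, which rose by 0.64. Its mean was low, 4.92 in controls and 5.55 with 4EGI-1, near the table's 25th percentile of 5.21. The part of either change, in T-cell markers or in Adgre1, in the results below was not tested.

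The promoters of 4 members are shown because NF-kB dimers are known to act on the genes of their own inhibitors and of Nfkb2, and because these 4 comprise the 2 members that changed in the arrays and 2 that did not pass the test. Each line holds the 150 bases before a RefSeq transcript start (GRCm38.p6), 5′ to 3′ along the gene. The stretches are chr19:46304587-46304736 (plus strand) for Nfkb2, chr17:45555550-45555699 (plus strand) for Nfkbie, chr12:55492648-55492797 (minus strand) for Nfkbia and chr10:19015411-19015560 (minus strand) for Tnfaip3. Capitals mark matches on either strand to the kB consensus, the 10-base motif that NF-kB dimers bind. For Nfkb2 and Tnfaip3, which have several starts, start 1 is shown. All 4 windows shown hold a match. The inhibitor gene Nfkbib and start 2 of Tnfaip3, which had no match, are not shown.
Nfkb2: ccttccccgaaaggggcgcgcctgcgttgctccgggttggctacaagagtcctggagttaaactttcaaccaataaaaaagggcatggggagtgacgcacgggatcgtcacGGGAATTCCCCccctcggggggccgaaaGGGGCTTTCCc
Nfkbie: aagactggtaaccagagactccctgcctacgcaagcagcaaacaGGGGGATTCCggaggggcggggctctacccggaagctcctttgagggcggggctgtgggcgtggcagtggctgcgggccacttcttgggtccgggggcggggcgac
Nfkbia: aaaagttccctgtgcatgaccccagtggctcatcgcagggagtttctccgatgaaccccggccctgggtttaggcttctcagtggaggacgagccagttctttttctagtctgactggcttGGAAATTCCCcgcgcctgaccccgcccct
Tnfaip3: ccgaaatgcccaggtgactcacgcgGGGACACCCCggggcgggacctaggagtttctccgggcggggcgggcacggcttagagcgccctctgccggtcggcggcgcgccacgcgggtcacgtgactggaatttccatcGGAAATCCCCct
In the Nfkb2 promoter 2 of its 3 matches overlap, so they read as 1 run of capitals.

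RefSeq promoters were found for 7 members, with 3 starts for Nfkb2 and 2 for Tnfaip3. The kB consensus was searched on both strands of the 250 bases before each start, and matches may overlap. A match stood before 7 of 10 member starts, belonging to 5 of 7 genes, and before 7.3% of 32851 promoters of all genes. Each of the 3 Nfkb2 starts had at least 1 match, Rel had 2 overlapping ones, and Rela, Nfkbib and 1 of the Tnfaip3 starts had 0. The motif was thus present before the start of a member that rose (Nfkb2), of one that fell (Nfkbie) and of members that did not pass (Nfkbia, Rel, Tnfaip3). These windows are a description of sequence, and a window without a match says nothing of NF-kB binding elsewhere.

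**Figure D1:**
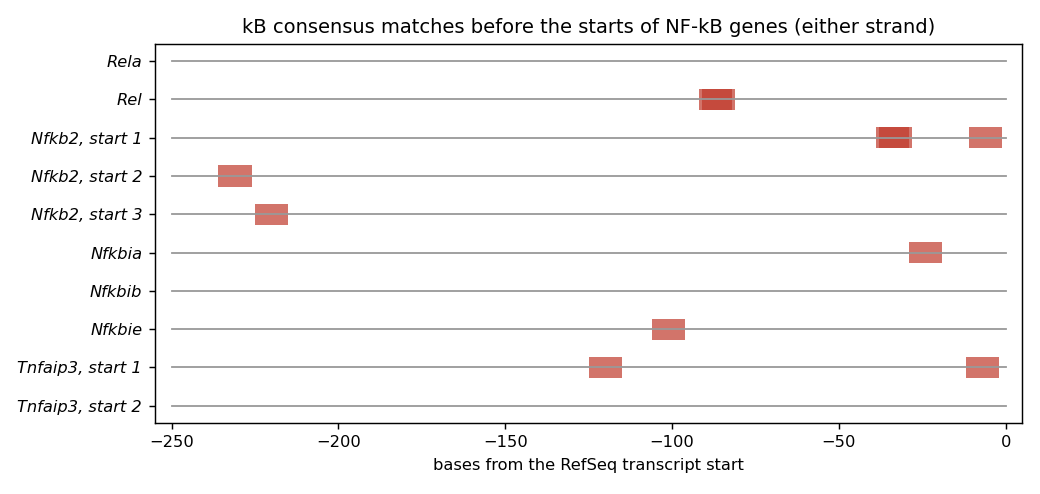
Positions of kB consensus matches (red bars, darker where 2 overlap) in the 250 bases before the RefSeq starts of 7 NF-kB genes; the horizontal axis is the distance from the start in bases. Of 10 starts 7 have a match, including all 3 starts of Nfkb2, and Rela, Nfkbib and the other Tnfaip3 start have none.

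Of the 9 measured members, 1 rose (Nfkb2) and 1 fell (Nfkbie) after 4EGI-1, and 7 did not pass the test. The test was limma across all genes with a Benjamini-Hochberg adjusted p under 0.05, and 22.9% of all 19937 genes passed it, 11.5% in each direction. The members' share of 2 in 9 is thus near the background, and their median log2 difference was -0.03, the same as the median over all genes. For 3 members, Nfkb2, Rela and Nfkbie, the groups' values stood fully apart, against 37.9% of all genes. The count was 1, Nfkb2 alone, in 5 of the 6 fits that left out an array, and 3 without 4EGI-1 replicate 3. Total RNA is not analysed here, so a change in the amount of an mRNA and a change in its loading on polysomes cannot be told apart, nor can fewer cells of a type from less RNA per cell.

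**Figure D2:**
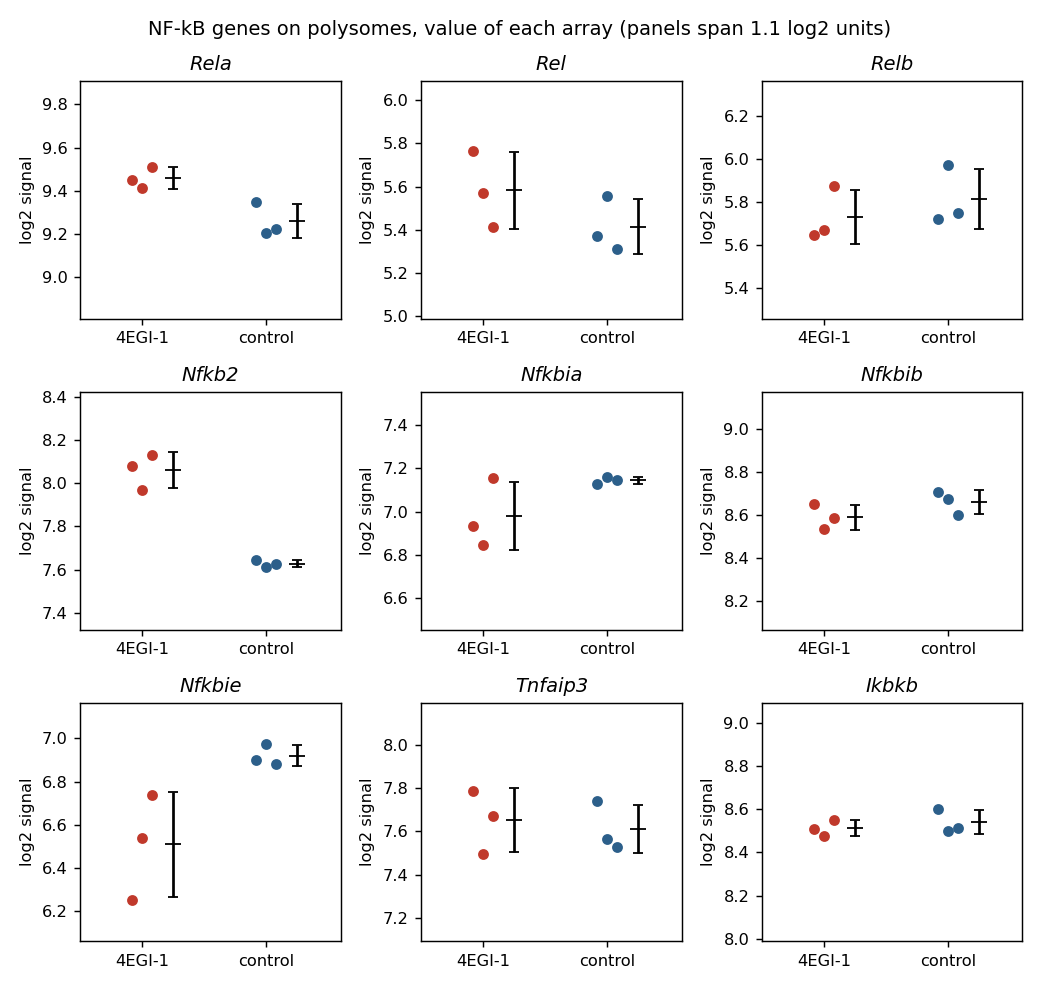
Log2 signal of each NF-kB gene on every array (points), 3 with 4EGI-1 at left and 3 controls at right of each panel, with the group mean and SD (black). Nfkb2 and Rela are higher on every 4EGI-1 array and Nfkbie is lower on every one; in the other panels the groups overlap.

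Among the subunit genes, Nfkb2 encodes p100, the precursor of the p52 subunit, which in its unprocessed form also retains other subunits in the cytoplasm. Its log2 signal was 8.08, 7.97 and 8.13 on the 4EGI-1 arrays and 7.64, 7.61 and 7.62 on the control arrays. The controls lay close together and each 4EGI-1 array stood clear above them. Nfkb2 averaged 8.06 ± 0.08 with 4EGI-1 and 7.63 ± 0.02 in controls (SD, n = 3 each), a log2 difference of 0.43 ± 0.07 (SE; limma adjusted p = 0.00205) or 1.35-fold. A larger absolute difference was seen in 10.1% of all genes, so the rise was moderate for these arrays. It passed under each of 14 other settings, with differences of 0.40 to 0.48 and adjusted p up to 0.0103. Nfkb2 has 1 probe set, so testing every probe set or averaging probe sets left its own values unchanged. Nfkb2 overlaps Psd and the non-coding 4833438C02Rik in the RefSeq annotation; the probe set of Psd differed by 0.23 ± 0.08 (SE; limma adjusted p = 0.074), and array values do not separate overlapping transcripts.

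Rela encodes p65, the transactivating subunit of the classical heterodimer. Its log2 signal was 9.45, 9.41 and 9.51 with 4EGI-1 and 9.35, 9.21 and 9.22 in controls. The groups did not overlap, though the lowest 4EGI-1 value lay only just above the highest control. The difference of 0.20 ± 0.07 (SE) did not pass (limma adjusted p = 0.0694, 95% interval 0.04 to 0.35). It passed in 3 of 14 other settings, with limma adjusted p values of 0.0205 when genes under the table's median were dropped, 0.0451 when those under its 25th percentile were, and 0.0198 under a trended robust prior.

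Rel encodes c-Rel, the subunit best known from lymphocytes, and Relb the partner of p52 in the noncanonical branch. Both lay below the table's median signal. Rel had 5.76, 5.57 and 5.41 with 4EGI-1, against 5.37, 5.56 and 5.31 in controls, a difference of 0.17 ± 0.10 (SE; limma adjusted p = 0.318). Relb had 5.65, 5.67 and 5.87 with 4EGI-1, against 5.72, 5.97 and 5.75 in controls, a difference of -0.08 ± 0.09 (SE; limma adjusted p = 0.601). The groups overlapped for both genes. The 95% intervals were -0.07 to 0.41 for Rel and -0.30 to 0.13 for Relb. Single arrays carried much of both differences. Leaving out 4EGI-1 replicate 1 put Rel at 0.08, and leaving out 4EGI-1 replicate 3 put it at 0.25. Leaving out control replicate 2 put Relb at -0.0042, and leaving out 4EGI-1 replicate 3 put it at -0.15.

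The inhibitor genes Nfkbia, Nfkbib and Nfkbie encode IkBα, IkBβ and IkBε, the classical cytoplasmic inhibitors. Nfkbie was the member that fell, with 6.25, 6.54 and 6.74 on the 4EGI-1 arrays and 6.90, 6.97 and 6.88 on the control arrays. All 3 treated arrays lay below the lowest control, but they were spread more widely than the controls. Nfkbie averaged 6.51 ± 0.24 with 4EGI-1 and 6.92 ± 0.05 in controls (SD, n = 3 each), a log2 difference of -0.41 ± 0.12 (SE; limma adjusted p = 0.0349) or 0.753-fold. The call ended when any array other than 4EGI-1 replicate 3 was left out. Dropping control replicate 1, 2 or 3 gave a limma adjusted p of 0.091, 0.103 or 0.0735, and dropping 4EGI-1 replicate 1 or 2 gave 0.0594 or 0.0741. Without 4EGI-1 replicate 3 the difference was -0.52 and the adjusted p 0.00963; the direction held in all of these settings. The nearby gene Slc35b2, within 1 kb of Nfkbie, differed by -0.19 ± 0.09 (SE; limma adjusted p = 0.155).

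Nfkbia, a well-known target gene of NF-kB, had 6.93, 6.85 and 7.15 with 4EGI-1, against 7.13, 7.16 and 7.15 in controls. The controls were nearly equal, while 2 of the 3 treated arrays were lower and the third lay within the control range. The difference of -0.17 ± 0.08 (SE) did not pass (limma adjusted p = 0.222); without 4EGI-1 replicate 3 it was -0.25 and passed (adjusted p = 0.0467), and without 4EGI-1 replicate 2 it was -0.10 (adjusted p = 0.479). 4EGI-1 replicate 3 held the highest of the treated values for both Nfkbia and Nfkbie.

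Nfkbib had 8.65, 8.53 and 8.59 with 4EGI-1, against 8.70, 8.68 and 8.60 in controls, a difference of -0.07 ± 0.06 (SE; limma adjusted p = 0.517). Tnfaip3 encodes A20, a ubiquitin-editing enzyme that ends signalling upstream of the kinase complex. It had 7.79, 7.50 and 7.67 with 4EGI-1, against 7.74, 7.56 and 7.53 in controls, a difference of 0.04 ± 0.09 (SE; limma adjusted p = 0.807). The groups overlapped for both genes, with 95% intervals of -0.22 to 0.08 for Nfkbib and -0.17 to 0.26 for Tnfaip3. Leaving out 4EGI-1 replicate 1 put Tnfaip3 at -0.026, and leaving out 4EGI-1 replicate 2 put it at 0.12 and Nfkbib at -0.04.

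Ikbkb encodes IKKβ, the kinase that phosphorylates the classical inhibitors. Its log2 signal was 8.51, 8.48 and 8.55 with 4EGI-1 and 8.60, 8.50 and 8.51 in controls. Ikbkb had the smallest difference of the members, -0.03 ± 0.06 (SE; limma adjusted p = 0.81, 95% interval -0.17 to 0.11), which turned to 0.0042 without control replicate 1.

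**Figure D3:**
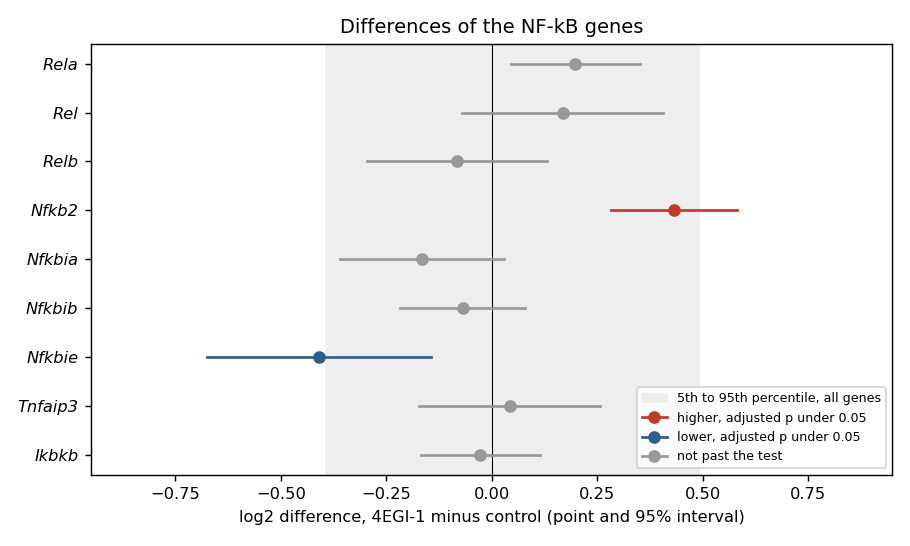
Log2 difference (4EGI-1 minus control) of each NF-kB gene with its 95% interval; red marks a rise and blue a fall at an adjusted p under 0.05, grey the genes that did not pass, and the shaded band runs from the 5th to the 95th percentile of all genes, -0.39 to 0.49. Nfkb2 at 0.43 lies inside the band and Nfkbie at -0.41 just outside it.

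**Figure D4:**
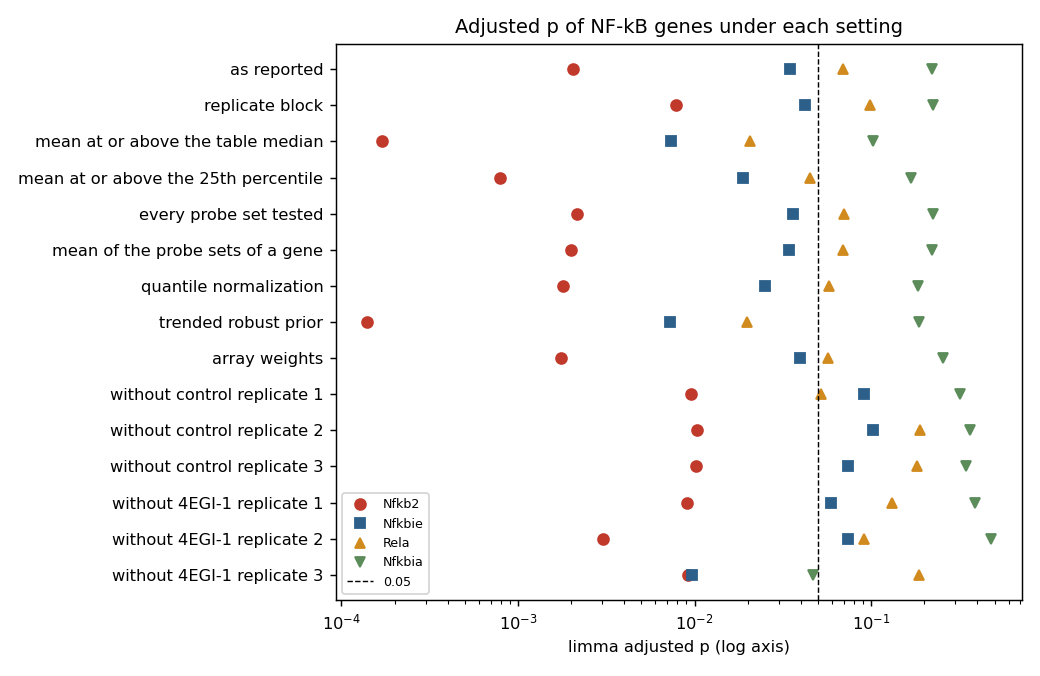
Limma adjusted p (log axis) of Nfkb2, Nfkbie, Rela and Nfkbia as reported and under 14 other settings, listed down the page, with a dashed line at 0.05. Nfkb2 stays left of the line throughout, at most 0.0103, while Nfkbie crosses it in 5 settings that leave out an array, up to 0.103.

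Whether members of like role responded unequally was asked for 5 of 6 planned pairs, since the pair with Nfkb1 could not be run. The difference between 2 members was taken on each array and compared between groups with a two-sided exact permutation test, whose smallest possible p with 3 against 3 arrays is 0.1. The response of Relb minus that of Rela was -0.28 on the log2 scale (exact permutation p = 0.1, 0.25 adjusted over the 5 pairs), and that of Nfkbie minus Nfkbia was -0.24, with the same p values. For these 2 pairs the groups did not overlap, but this test cannot reach a p under 0.05 with 3 arrays a group, so it cannot call a pair. The response of Rel minus that of Rela was -0.03 (exact p = 0.9, adjusted 0.9), that of Nfkbib minus Nfkbia 0.10 (exact p = 0.4, adjusted 0.5) and that of Tnfaip3 minus Nfkbia 0.21 (exact p = 0.2, adjusted 0.333).

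The genes most like the 2 members that changed were found by the Euclidean distance over the 6 arrays between values centred on each gene's own mean. Nearest to Nfkb2 were Tnik, Smg9 and Rbm48, at distances of 0.056, 0.056 and 0.057 log2 units and with differences of 0.44, 0.46 and 0.40. Nearest to Nfkbie were Tcte1, Hoxc9 and Ceacam9, at 0.134, 0.148 and 0.148 and with differences of -0.34, -0.34 and -0.38. Tcte1 did not pass (limma adjusted p = 0.103); it was at -0.19 without 4EGI-1 replicate 1, and it passed without 4EGI-1 replicate 3 (-0.48, adjusted p = 0.0153) and under a trended robust prior (0.0446). Hoxc9 (0.046) and Ceacam9 (0.0443) each lost their call without any 1 array other than 4EGI-1 replicate 3, with adjusted p up to 0.133 and 0.135. The Nfkbie neighbours were thus further off than those of Nfkb2, and nothing is read from either list about shared function.

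Other genes of the pathway were taken as 7 lists of 109 genes, of which 103 had a probe set of their own symbol and the others are not analysed here. In all, 12 rose, 16 fell and 75 did not pass, which is 27.2% past the test against 22.9% of all genes. The median log2 difference was -0.06, against -0.03 over all genes. In 5 of the 7 lists genes went both ways. Among the negative regulators 2 rose and 0 fell, and among the atypical IkB genes none passed. The share past the test ran from 0% of the atypical IkB genes to 36.8% of the adaptors, with 12.5% of the negative regulators. Of all genes 11.5% passed in each direction, and lists this short are not read as unlike that background. The count of 28 was 18 without control replicate 1 and 17 without control replicate 3. In those fits 3697 and 3563 of all 19937 genes passed, against 4573 with all arrays.

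**Figure D5:**
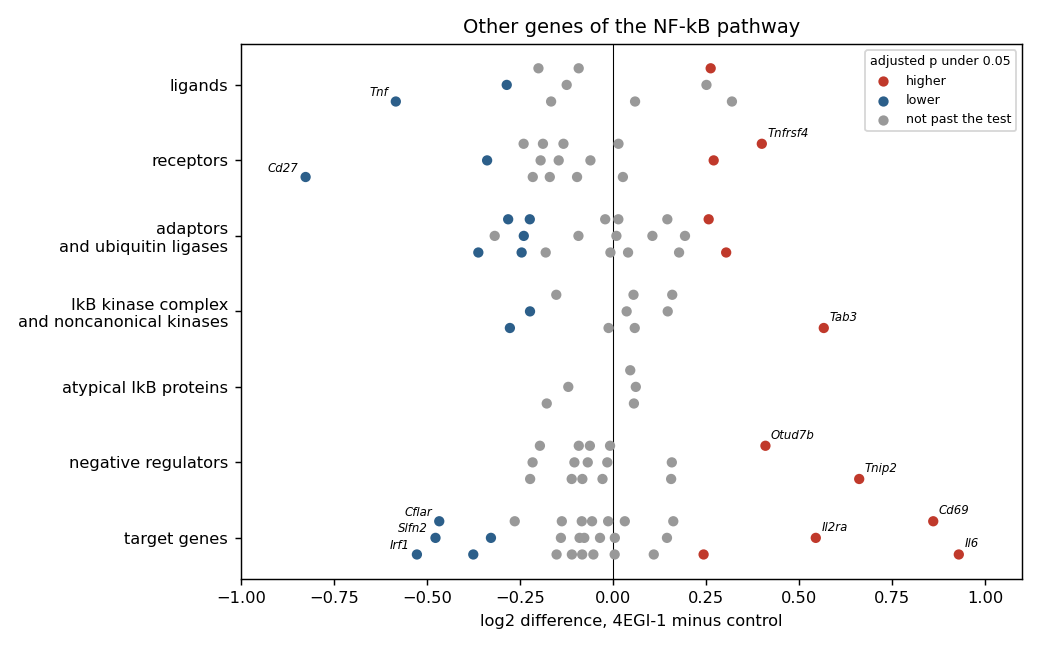
Log2 difference (4EGI-1 minus control) of 103 other NF-kB pathway genes, 1 point a gene, in 7 lists down the page; red genes rose and blue genes fell at an adjusted p under 0.05, grey did not pass, and vertical spread within a list only separates points. Changes went both ways in 5 lists, from -0.83 for Cd27 to 0.93 for Il6, whose signal lay below the table's 25th percentile of 5.21, and none of the atypical IkB proteins passed.

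Of 10 ligand genes measured, 1 rose and 2 fell (median -0.11). Tnf, which encodes the cytokine TNF, fell to 6.12, 5.82 and 5.72 with 4EGI-1, against 6.49, 6.57 and 6.36 in controls, a difference of -0.58 ± 0.11 (SE; limma adjusted p = 0.00577). The groups were clear of each other, at a signal near the table's median. Tnfsf11, the gene of the ligand RANKL, fell by 0.29 ± 0.06 (SE; limma adjusted p = 0.0105), and Tnfsf13b, the gene of the B-cell survival factor BAFF, rose by 0.26 ± 0.08 (adjusted p = 0.0384). The rise of Tnfsf13b ended without any 1 array other than 4EGI-1 replicate 3, with limma adjusted p of 0.0817 to 0.117.

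Of 15 receptor genes measured, 2 rose and 2 fell (median -0.15). The TNF-receptor family gene Cd27 fell to 9.40, 9.22 and 9.27 with 4EGI-1, against 10.17, 10.12 and 10.07 in controls, a difference of -0.83 ± 0.07 (SE; limma adjusted p = 0.000147). The costimulatory receptor gene Cd28 fell by 0.34 ± 0.08 (limma adjusted p = 0.0135), and its adjusted p was 0.0526 without control replicate 1; Cd28 is also 1 of the 6 T-cell markers that fell. Tnfrsf4, the gene of OX40, a costimulatory receptor of T cells, rose by 0.40 ± 0.12 (limma adjusted p = 0.0429) and Tnfrsf13c, the gene of the BAFF receptor, by 0.27 ± 0.08 (0.0339). Each of these 2 rises ended without 5 of the 6 arrays taken 1 at a time: Tnfrsf4 without any but 4EGI-1 replicate 3 (adjusted p = 0.0519 to 0.134), and also with array weights (0.053), and Tnfrsf13c without any but 4EGI-1 replicate 1 (adjusted p = 0.0551 to 0.107).

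Of 19 adaptors and ubiquitin enzymes measured, 2 rose and 5 fell (median -0.01). The genes of the paired conjugating factors that build K63-linked ubiquitin chains both fell, Ube2n by 0.36 ± 0.07 (SE; limma adjusted p = 0.00891) and Ube2v1 by 0.25 ± 0.06 (adjusted p = 0.0182). When probe sets were averaged, Ube2n was at -0.25 (adjusted p = 0.0695) and Ube2v1 at -0.18 (adjusted p = 0.264), and Ube2v1 also lost its call without control replicates 1 or 3 or 4EGI-1 replicate 3 (adjusted p = 0.0538 to 0.066). Fbxw11, the gene of a substrate receptor of the ligase that recognises phosphorylated IkB, fell by 0.28 ± 0.08 (adjusted p = 0.0402); the call ended without any array but 4EGI-1 replicate 3 (adjusted p = 0.0554 to 0.125). The others that fell, named after their values were seen, were Bcl10 at -0.24 and Prkcq at -0.22 (limma adjusted p = 0.0254 and 0.0401). Prkcq lost its call without any 1 array (adjusted p = 0.0589 to 0.119) and Bcl10 without any but 4EGI-1 replicate 3 (0.0546 to 0.0813).

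The ubiquitin ligase genes Birc2, which encodes cIAP1, and Traf6 rose by 0.30 ± 0.08 and 0.26 ± 0.06 (SE; limma adjusted p = 0.0209 and 0.0203). When probe sets were averaged, Birc2 was at 0.23 (limma adjusted p = 0.0388). Birc2 lost its call without control replicates 2 or 3 or 4EGI-1 replicates 1 or 2 (adjusted p = 0.0566 to 0.0682), and Traf6 without control replicates 1 or 3 or 4EGI-1 replicates 1 or 2 (adjusted p = 0.0555 to 0.0667). Birc3, which encodes cIAP2 and is itself a known NF-kB target, differed by 0.19 ± 0.07 and did not pass (limma adjusted p = 0.0944), although its groups did not overlap; its adjusted p was 0.0308 when genes under the table's median were dropped.

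Among kinases of the pathway and their partners, 1 of 10 rose and 2 fell (median 0.05). Tab3, the gene of an adaptor that ties TAK1 to ubiquitin chains, rose to 9.93, 9.91 and 9.82 with 4EGI-1, against 9.30, 9.24 and 9.42 in controls, a difference of 0.57 ± 0.07 (SE; limma adjusted p = 0.000842). Tab1, the gene of the TAK1 activator, fell by 0.28 ± 0.06 (adjusted p = 0.0103), and Map3k7, which encodes TAK1, fell by 0.22 ± 0.06 (adjusted p = 0.0242). The fall of Map3k7 ended without any array but control replicate 1 (adjusted p = 0.0522 to 0.079). Ikbkg, which encodes the regulatory subunit NEMO, had 7.06, 7.06 and 7.06 with 4EGI-1, against 6.97, 6.83 and 6.90 in controls; its difference of 0.16 ± 0.06 did not pass (limma adjusted p = 0.11, or 0.039 without the genes under the table's median). Map3k14, which encodes the noncanonical kinase NIK, differed by 0.04 ± 0.07 (limma adjusted p = 0.764).

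The 5 atypical IkB genes, which encode nuclear or divergent relatives of the inhibitors, gave 0 past the limma test and 1 at an unadjusted p under 0.05, Nfkbid at -0.18 (unadjusted p = 0.0393), against 33.1% of all genes at that unadjusted threshold. Bcl3, the gene of a nuclear partner of p52 and p50, differed by -0.12 ± 0.10 (SE; limma adjusted p = 0.452) and Nfkbiz, the gene of IkBζ, by 0.06 ± 0.07 (limma adjusted p = 0.65). With 1 array left out, Bcl3 ran between -0.23 (without control replicate 3) and -0.05 (without control replicate 1), and Nfkbiz between 0.0035 (4EGI-1 replicate 3 left out) and 0.10 (4EGI-1 replicate 2 left out). Of 16 negative regulators measured, 2 rose and 0 fell (median -0.06). Tnip2, which encodes the A20-binding inhibitor ABIN-2, rose to 7.46, 7.54 and 7.45 with 4EGI-1, against 6.78, 6.91 and 6.78 in controls, a difference of 0.66 ± 0.07 (SE; limma adjusted p = 0.000295). Otud7b, the gene of the deubiquitinase Cezanne, rose by 0.41 ± 0.07 (limma adjusted p = 0.00295). Both stood clear of the controls on every array, whereas Cyld, the gene of another deubiquitinase of the pathway, differed by -0.03 ± 0.06 (limma adjusted p = 0.795).

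Of 28 target genes measured, 4 rose, 5 fell and 19 did not pass (median -0.07). Cd69, an early activation antigen, rose to 6.41, 6.17 and 6.65 with 4EGI-1, against 5.55, 5.55 and 5.55 in controls, a difference of 0.86 ± 0.11 (SE; limma adjusted p = 0.000989). Il2ra encodes a chain of the high-affinity interleukin 2 receptor. It had 11.92, 11.84 and 11.73 with 4EGI-1, against 11.35, 11.24 and 11.27 in controls, a difference of 0.54 ± 0.07 (SE; limma adjusted p = 0.00101). Both genes were higher on every treated array, and the control values of Cd69 lay below the table's median of 6.404. The cytokine gene Il6 rose by 0.93 ± 0.15 (limma adjusted p = 0.00297), but at a mean signal of 3.66 with 4EGI-1 and 2.73 in controls it lay below the table's 25th percentile of 5.21. The chemokine gene Ccl5 was the other that rose, by 0.24 (limma adjusted p = 0.0227), and is named after its values were seen; the call ended without any 1 array but 4EGI-1 replicate 3 (adjusted p = 0.0508 to 0.0803).

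Targets that fell included Irf1, the gene of an interferon-response factor, at 7.61, 7.49 and 7.42 with 4EGI-1, against 8.07, 7.89 and 8.13 in controls (difference -0.53 ± 0.08, SE; limma adjusted p = 0.00266). Cflar, which encodes the caspase inhibitor c-FLIP, fell by 0.47 ± 0.07 and Slfn2, a gene required for T-cell quiescence, by 0.48 ± 0.07 (limma adjusted p = 0.00257 and 0.00232). With probe sets averaged, Irf1 was at -0.43 and Cflar at -0.42 (limma adjusted p = 0.00285 and 0.00222). The remaining genes that fell were Sod2 at -0.38, the gene of mitochondrial superoxide dismutase, and the immunoproteasome gene Psmb9 at -0.33, both named after their values were seen. Icam1, the gene of an adhesion molecule, had 6.62, 7.28 and 7.11 with 4EGI-1, against 7.13, 7.05 and 7.16 in controls, and did not pass (difference -0.11 ± 0.15, SE; limma adjusted p = 0.672). Its low value was on 4EGI-1 replicate 1 alone, without which the difference was 0.08.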

How the data were processed

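Polysomal RNA of 6 samples, 3 with 4EGI-1 and 3 controls by their titles, was amplified and hybridised as biotin-labelled cDNA to 1 array each. The deposited values are log2 signals made by the authors with RMA, per the submitters' processing notes; RMA normalizes arrays to each other, so a shift of all mRNAs together would not be seen. The labels call the samples biological replicates.

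Of 34760 probe sets, 21640 have 1 gene symbol in the platform annotation, 1321 several (not named here) and 11799 none listed. Symbols were updated by Entrez identifier (21553 matched) through a RefSeq table of GRCm38.p6. Each symbol was read from its brightest probe set by mean signal, giving 19937 genes.

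Differences (4EGI-1 minus control) were fitted over all genes in limma 3.58.1 (lmFit, eBayes; R 4.3.3) with no filter, two-sided, with Benjamini-Hochberg adjustment over all genes and a threshold of 0.05. SE is moderated, with 8.15 degrees of freedom. Scripts were tested on simulated data. No array repeated another of its group. Promoters come from RefSeq (GRCm38.p6).

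The members, pathway lists, markers and tests were chosen with earlier results of these data known. Named were all members, up to 3 genes of each list with the largest rise and fall among those past the test, 9 fixed genes (Chuk, not measured here, Ikbkg, Bcl3, Nfkbiz, Map3k14, Cyld, Birc3, Il2ra and Icam1) and the 3 genes most like the member with the largest rise and with the largest fall. The 7 lists were ligands, receptors, adaptors and ubiquitin ligases, kinases, atypical IkB proteins, negative regulators and targets. Other settings tried were a replicate block, 2 filters on low signal, every probe set, averaged probe sets, quantile normalization, a trended robust prior, array weights and each array left out; running them also for Bcl10, Prkcq, Ccl5, Sod2, Psmb9 and Nfkbid was chosen after seeing the data.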

Additional observations from a re-analysis of the deposited data

How the results depend on the processing

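Nfkb2 was higher and past the test in all 14 other settings run, and the fall of Nfkbie passed in 9 of 14, ending in 5 of the 6 that leave out an array. Each measured member has 1 probe set, so testing every probe set or averaging probe sets could not change a member's own values. In the 8 settings that keep all arrays the count of members past the test was 2 or 3, the third being Rela. Leaving out 1 array, with fewer samples in each fit, gave 1 to 3 members, 17 to 24 other pathway genes and 3546 to 3892 of all genes. Signs turned for 5 genes not past the test, each without 1 array: Ikbkb and Cyld without control replicate 1, Map3k14 without control replicate 3, Tnfaip3 and Icam1 without 4EGI-1 replicate 1. Over the 6 arrays left out, the difference ran between -0.0468 and 0.0042 for Ikbkb, -0.043 and 0.00019 for Cyld, -0.00378 and 0.0741 for Map3k14, -0.026 and 0.12 for Tnfaip3, and -0.249 and 0.0807 for Icam1. Rel, Relb, Tnf, Tnfsf13b, Cd69, Il6, Map3k14, Nfkbid, Tcte1, Hoxc9 and Ceacam9 lie below the table's median and have no value under that filter. Il6 also has none under the filter at the 25th percentile.

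For samples of the same replicate number, deviations from the group means correlated at 0.061, 0.107 and -0.021 across genes (replicates 1, 2 and 3). Across unlike numbers the correlations ran from -0.109 to 0.055. Replicates 1 and 2 correlated best with their own number and replicate 3 did not. Correlations this small, from 3 arrays a group, cannot show whether the samples were paired. With the replicate block 2 members, 22 other pathway genes and 4071 of all genes passed; Nfkb2 and Nfkbie passed, while Map3k7, Fbxw11, Bcl10, Prkcq, Tnfrsf4, Tnfrsf13c, Tnfsf13b, Hoxc9 and Ceacam9 did not (adjusted p = 0.0515 to 0.0875).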
